A study of Mus musculus with 12 samples.

Results

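The 10 genes described here mark the endothelium, the cell layer that lines blood vessels. They are Kdr, Flt1, Tek, Tie1, Pecam1, Cdh5, Esam, Cldn5, Plvap and Emcn. They were chosen by name, and each was found on 1 row of the deposited table of read counts, which lists 21930 genes. The RNA came from 12 wild type male C57BL/6J mice, 3 in each of 4 groups. The mice had free access to food (ad libitum, AL) or were fasted on alternate days (intermittent fasting, IF) for 12 weeks from an age of 8 weeks. They then received 1 intraperitoneal injection of PBS or of NaIO3 (sodium iodate, an oxidant that damages the retinal pigment epithelium, RPE) at 25 mg/kg, and tissue was taken 7 days later. By the methods, both diets were kept up after the NaIO3 injection until the experiments ended. The groups are AL + PBS, IF + PBS, AL + NaIO3 and IF + NaIO3, and the comparisons ask what the injury does on either diet and what the diet does with and without the injury.

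The labels name the tissue as RPE with choroid and sclera, while the methods describe eye cups. Sag, which encodes the photoreceptor arrestin, was nevertheless between 2936 and 7931 CPM (counts scaled to the depth of the library) in the 12 libraries, and the RPE gene Rpe65 was between 39.6 and 146 CPM. RNA of the neural retina was therefore present in each library. Vessels of the retina, vessels of the choroid and cells outside vessels cannot be told apart as the source of the members' reads. Libraries held 26364665 to 43046950 counts. CPM were scaled with trimmed mean of M-values (TMM) factors, which were between 0.934 and 1.14. Replicate 3 of AL + NaIO3 stood apart from the other libraries in many genes, and the comparisons of the members and of their related lists that hold it are given with and without it. The values of the lists without it were added after seeing the data. In bulk samples, fewer endothelial cells and less RNA per cell cannot be told apart either.

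Endothelial cells of the choriocapillaris, the capillary bed under the RPE, have fenestrae, which let plasma reach the RPE, and they depend on vascular endothelial growth factor (VEGF) that the RPE makes. Retinal capillaries have no fenestrae and are sealed by tight junctions. Both kinds respond to VEGF and to angiopoietins through receptor tyrosine kinases, and both are held together by adhesion molecules at their junctions.

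Of the receptors, Kdr (VEGF receptor 2, ENSMUSG00000062960, chr5:75932827-75978458) is the main signalling receptor for VEGF-A. Flt1 (VEGF receptor 1, ENSMUSG00000029648, chr5:147561604-147726011) binds VEGF-A, VEGF-B and placental growth factor and can act as a decoy. Tek (also called Tie2, ENSMUSG00000006386, chr4:94739289-94874976) is the receptor of the angiopoietins, and Tie1 (ENSMUSG00000033191, chr4:118471191-118490061) is its partner. Of the junction proteins, Pecam1 (CD31, ENSMUSG00000020717, chr11:106654217-106750628) is an adhesion molecule that leukocytes and platelets also carry. Cdh5 (VE-cadherin, ENSMUSG00000031871, chr8:104101625-104144511) builds the adherens junctions. Esam (ENSMUSG00000001946, chr9:37528078-37538319) and Cldn5 (claudin-5, ENSMUSG00000041378, chr16:18776847-18778262) are proteins of tight junctions. Plvap (ENSMUSG00000034845, chr8:71497765-71511752) forms the diaphragms of fenestrae, and Emcn (endomucin, ENSMUSG00000054690, chr3:137341067-137432185) is a sialomucin of capillaries and veins. Positions are those of the deposited tables, which lie on build GRCm38.

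Promoter sequence was read for the members that the results turn on. RefSeq windows on GRCm38.p6 were matched for 6 of the 10 genes (Kdr, Flt1, Tek, Tie1, Cldn5 and Emcn). The 250 bases before the start of 4 of them are shown: Kdr, the most abundant member and the one whose fasted libraries lay below the AL libraries without overlap after either injection; Flt1, its sister receptor; Emcn, the member that stood out most in a single library; and Cldn5, which holds no match. Capitals mark GGAA, the core of the sites bound by ETS factors such as Erg and Fli1, and TTCC, the same core on the other strand. These letter strings cannot overlap.
Kdr: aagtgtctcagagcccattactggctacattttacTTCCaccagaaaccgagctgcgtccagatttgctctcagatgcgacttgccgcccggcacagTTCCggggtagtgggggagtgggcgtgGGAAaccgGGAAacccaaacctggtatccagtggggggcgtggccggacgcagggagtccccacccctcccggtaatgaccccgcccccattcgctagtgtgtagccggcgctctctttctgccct
Flt1: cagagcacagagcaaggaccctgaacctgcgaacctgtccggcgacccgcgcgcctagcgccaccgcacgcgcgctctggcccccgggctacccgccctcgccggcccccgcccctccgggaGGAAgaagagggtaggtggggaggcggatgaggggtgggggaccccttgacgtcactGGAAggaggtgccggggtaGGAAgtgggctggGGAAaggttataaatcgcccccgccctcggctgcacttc
Emcn: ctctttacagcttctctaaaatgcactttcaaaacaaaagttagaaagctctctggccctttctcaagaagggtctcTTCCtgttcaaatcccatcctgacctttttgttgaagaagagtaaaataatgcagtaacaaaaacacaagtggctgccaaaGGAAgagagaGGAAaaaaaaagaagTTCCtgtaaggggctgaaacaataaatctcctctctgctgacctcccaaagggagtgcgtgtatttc
Cldn5: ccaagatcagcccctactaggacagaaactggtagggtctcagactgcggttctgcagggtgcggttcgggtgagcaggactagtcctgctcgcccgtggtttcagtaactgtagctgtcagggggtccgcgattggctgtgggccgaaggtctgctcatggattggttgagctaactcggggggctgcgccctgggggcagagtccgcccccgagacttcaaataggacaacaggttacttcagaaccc
The windows lie at chr5:75978456-75978705 on the minus strand (Kdr), chr5:147726012-147726261 on the minus strand (Flt1), chr3:137340828-137341077 on the plus strand (Emcn) and chr16:18776597-18776846 on the plus strand (Cldn5). Kdr, Flt1 and Emcn held 4 matches each, Tie1 held 7, Tek held 2 and Cldn5 held 0. Of the 32851 RefSeq windows of this length, 93.4% held at least 1 match, with a median of 3 matches. The matches are a description of these letters and were not compared with the expression values.

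Levels of different genes were compared per length, on the deposited FPKM (a level per gene length and library depth). Averaged over the 12 libraries, Kdr was at 23.8 ± 11.4 FPKM (SD, n = 12) and Flt1 at 13.2 ± 2.40. Kdr was above Flt1, and Flt1 above Plvap, in 12 of 12 libraries. Plvap (7.11 ± 2.11 FPKM) and Esam (6.91 ± 1.86 FPKM) did not differ beyond their spread, and Plvap was the higher of the pair in 7 of 12 libraries. Cldn5 (2.93 ± 1.28 FPKM), Pecam1 (2.30 ± 1.10 FPKM) and Emcn (1.57 ± 1.47 FPKM) came next. Tie1 (1.01 ± 0.814 FPKM), Tek (0.908 ± 0.535 FPKM) and Cdh5 (0.894 ± 0.704 FPKM) were lowest, and Tie1 was above Tek, and Tek above Cdh5, in 7 of 12 libraries each. The full ranges of each neighbouring pair overlapped. Both VEGF receptors thus took most of the members' reads, with 3920 to 13627 reads per library for Kdr and 2728 to 4702 for Flt1. Whether cells outside vessels gave part of these reads was not tested. The member with the fewest reads was Cdh5, with 54 to 482 per library, so its values also carry counting error.

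Kdr was at 155, 161 and 165 CPM in AL + PBS, at 130.4, 128 and 129 in IF + PBS, at 182, 192 and 362 in AL + NaIO3 and at 119, 140.0 and 147 in IF + NaIO3 (replicates 1, 2 and 3 in this order, as for each gene below). Each AL + NaIO3 library was above each AL + PBS library, and each fasted library was below each library of the AL group with the same injection. Flt1 was at 93.1, 86.8 and 89.6 CPM in AL + PBS, at 105, 105 and 96.0 in IF + PBS, at 98.8, 122 and 125 in AL + NaIO3 and at 96.5, 93.7 and 109 in IF + NaIO3. Its AL + PBS libraries were below the libraries of each of the other groups, which overlapped among themselves. Replicate 3 of AL + NaIO3 was 2.45-fold above the median of the other 11 libraries for Kdr and 1.29-fold for Flt1.

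Tek was at 3.84, 4.11 and 3.15 CPM in AL + PBS, at 4.46, 3.98 and 4.25 in IF + PBS, at 6.22, 3.38 and 11.95 in AL + NaIO3 and at 3.56, 5.26 and 5.61 in IF + NaIO3. Tie1 was at 3.81, 2.48 and 3.35 CPM in AL + PBS, at 4.40, 2.74 and 5.84 in IF + PBS, at 4.49, 4.19 and 14.9 in AL + NaIO3 and at 4.04, 3.86 and 4.54 in IF + NaIO3. For both Tek and Tie1, replicate 3 of AL + NaIO3 was the highest library. The other 2 libraries of that group lay within the range of the remaining groups for Tie1, while for Tek replicate 1 was above that range and replicate 2 within it. Tie1 did not overlap between AL + NaIO3 and AL + PBS, while Tek did.

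Among the junction genes, Pecam1 was at 8.23, 4.27 and 6.57 CPM in AL + PBS, at 7.12, 7.21 and 6.55 in IF + PBS, at 10.3, 8.46 and 18.4 in AL + NaIO3 and at 6.28, 8.96 and 10.8 in IF + NaIO3. Cdh5 was at 2.95, 3.31 and 3.38 CPM in AL + PBS, at 2.60, 3.79 and 1.68 in IF + PBS, at 5.13, 2.52 and 12.8 in AL + NaIO3 and at 3.59, 4.08 and 5.06 in IF + NaIO3. Pecam1 was higher in each AL + NaIO3 library than in AL + PBS, whereas the lowest AL + NaIO3 library of Cdh5 was below each AL + PBS library. Esam was at 12.7, 13.1 and 9.82 CPM in AL + PBS, at 15.3, 19.4 and 18.4 in IF + PBS, at 7.35, 13.1 and 16.8 in AL + NaIO3 and at 15.0, 13.4 and 13.1 in IF + NaIO3. Cldn5 was at 3.65, 3.31 and 5.22 CPM in AL + PBS, at 2.57, 5.09 and 4.19 in IF + PBS, at 7.79, 4.05 and 9.19 in AL + NaIO3 and at 5.39, 3.39 and 5.99 in IF + NaIO3. Esam was the only member whose highest library was not replicate 3 of AL + NaIO3 but a fasted one, IF + PBS replicate 2. The groups of Cldn5 overlapped in each of the 4 comparisons.

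Plvap was at 16.0, 12.7 and 17.2 CPM in AL + PBS, at 19.2, 17.8 and 17.7 in IF + PBS, at 14.2, 17.5 and 26.4 in AL + NaIO3 and at 18.6, 10.6 and 15.1 in IF + NaIO3. Emcn was at 3.91, 3.78 and 4.20 CPM in AL + PBS, at 3.56, 3.46 and 6.12 in IF + PBS, at 3.59, 2.31 and 15.7 in AL + NaIO3 and at 3.30, 3.00 and 3.57 in IF + NaIO3. The AL + NaIO3 libraries of Emcn were the highest and the lowest of the 12, with 4.39-fold the median of the other 11 libraries in replicate 3. The plot of each gene's level by library shows the same library on top for 9 genes.

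**Figure D1:**
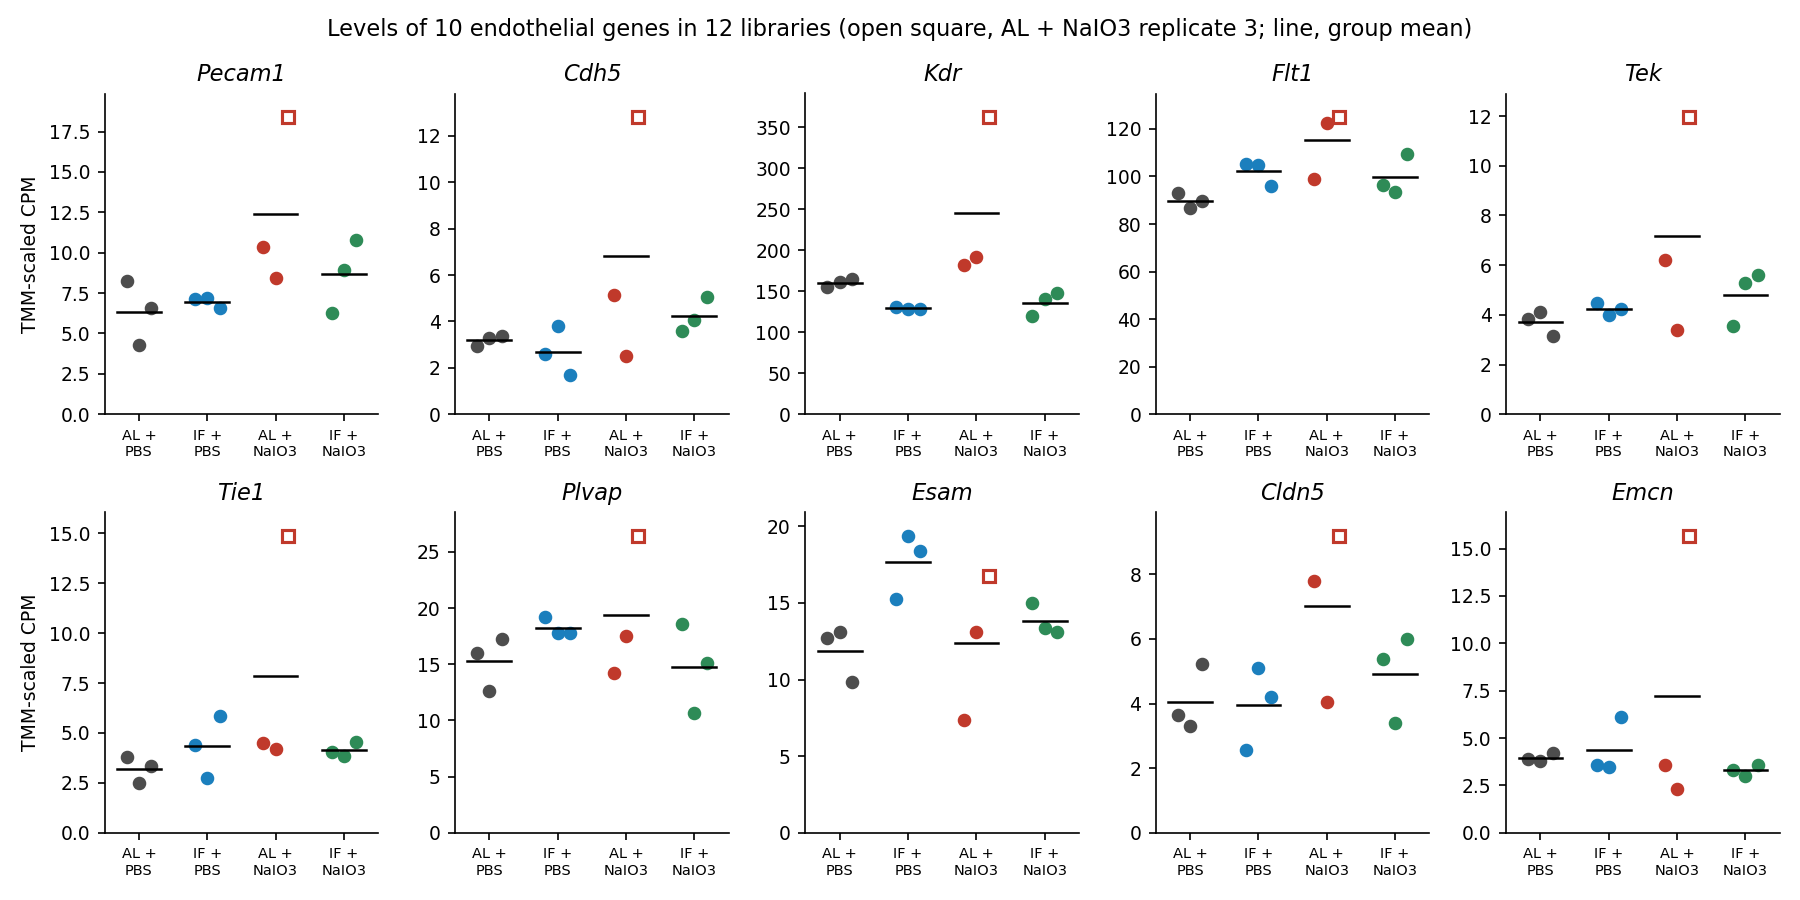
TMM-scaled CPM (linear axis from 0, own scale for each gene) of the 10 endothelial genes in the 12 libraries, 3 per group; points are libraries, lines are group means and the open square is replicate 3 of AL + NaIO3. The open square is the highest of the 12 points for 9 genes, at 362 CPM for Kdr and 15.7 CPM for Emcn, and lies under the highest point for Esam.

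Replicate 3 of AL + NaIO3 thus stood apart from the rest. It was the highest library for 9 of 10 endothelial genes (90%), against 26.1% of the 15970 genes tested over the 12 libraries. Relative to the median of the other 11 libraries it was 4.39-fold higher for Emcn, 3.78-fold for Cdh5, 3.68-fold for Tie1, 2.91-fold for Tek, 2.55-fold for Pecam1 and 2.19-fold for Cldn5. The difference was smaller for Plvap (1.54-fold), Flt1 (1.29-fold) and Esam (1.28-fold). The summed level of the 10 genes was 613 CPM in it and between 276 and 370.0 CPM in the other 11. Without Kdr and Flt1, the sum was 126 CPM against 47.0 to 64.8 CPM.

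Genes of other cell types moved in the same library. The 8 stroma genes (such as the collagen gene Col1a1 and Dcn) summed to 1425 CPM, against 82.1 to 242 CPM in the other 11, and all 8 were highest there. The 5 melanocyte genes summed to 1985 CPM, against 119 to 322 CPM. The 10 mural genes, which mark pericytes and smooth muscle, summed to 392.2 CPM against 91.6 to 135 CPM. Of 24 other genes of the endothelium at large, 21 were highest in this library, with a median of 2.62-fold over the other libraries. The 9 photoreceptor genes were lower, with a sum of 11127 CPM, against 21026 to 34397 CPM elsewhere. The leukocyte genes summed to 308 CPM in this library and to 155 and 118 CPM in the other 2 libraries of AL + NaIO3, against 42.7 to 62.0 CPM in the remaining groups. Cd3e, Aif1 and S100a8 of that list had 0 reads in at least 1 library. The part of these cell types in the endothelial values was not tested.

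**Figure D2:**
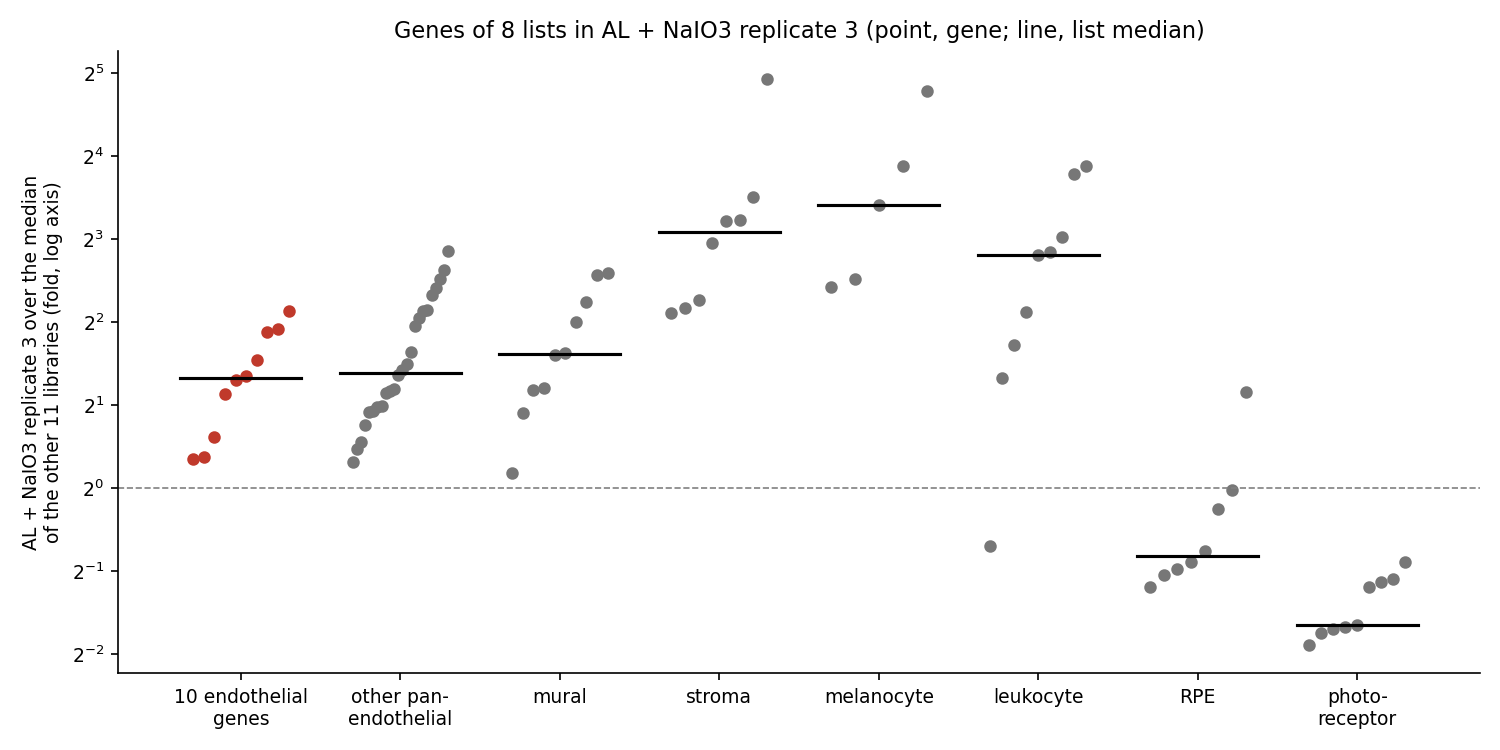
Fold of replicate 3 of AL + NaIO3 over the median of the other 11 libraries (log axis) for the genes of 8 lists; points are genes and lines are list medians, and Cd3e, with a median of 0 elsewhere, is not drawn. The endothelial genes lie between 1.28-fold and 4.39-fold, below the medians of the stroma (8.50-fold) and melanocyte (10.6-fold) genes and above the photoreceptor genes (0.317-fold).

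**Figure D3:**
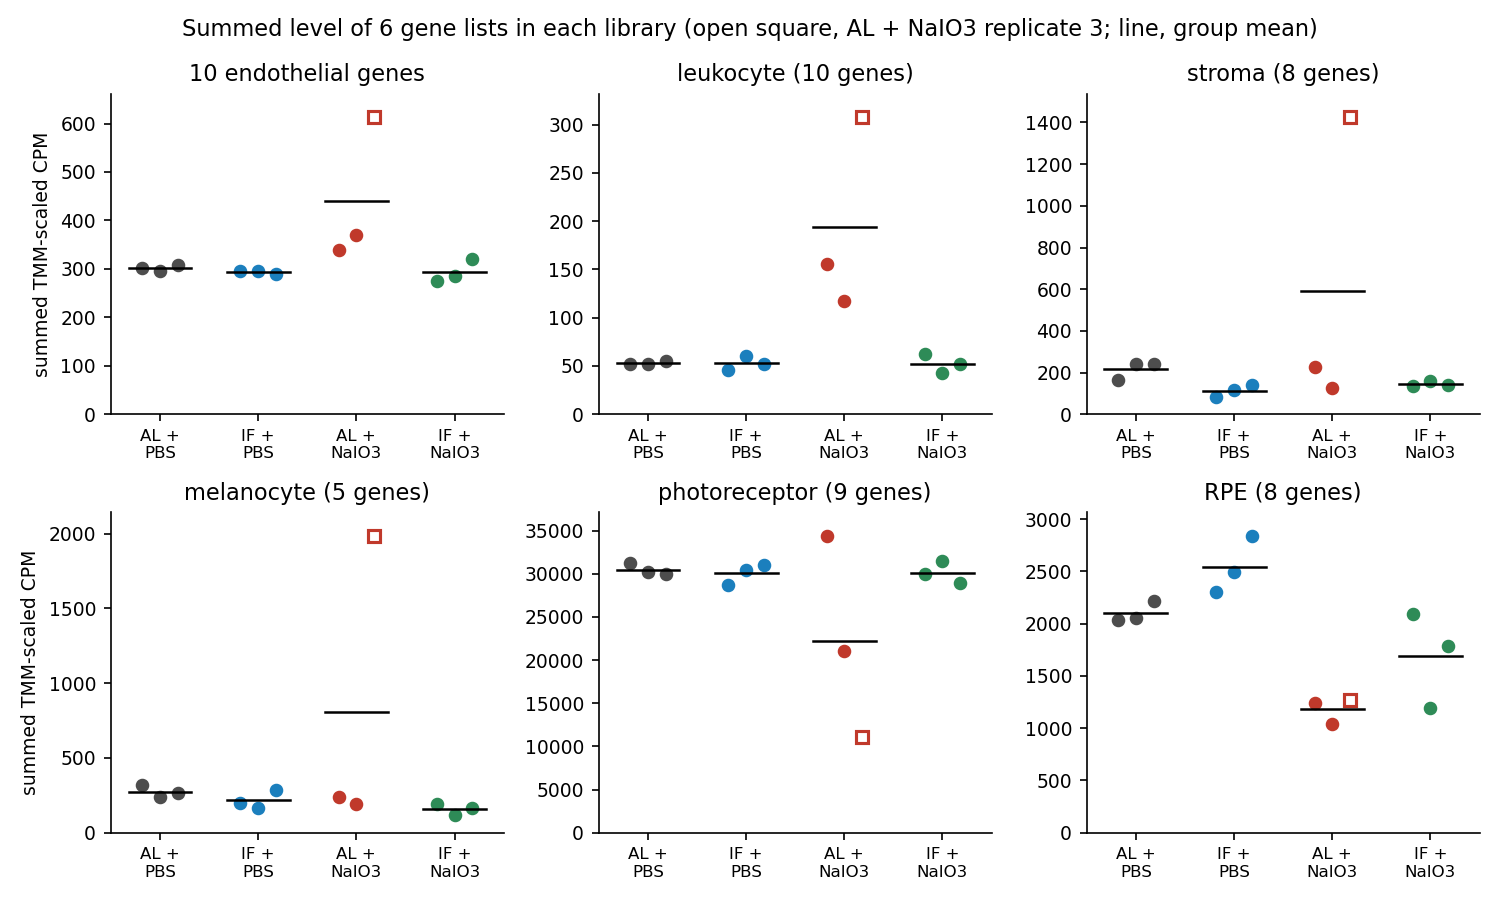
Summed TMM-scaled CPM of 6 lists in each library (linear axis from 0); points are libraries, lines are group means and the open square is replicate 3 of AL + NaIO3. The stroma and melanocyte sums are high in that library alone (1425 and 1985 CPM), while the leukocyte sum is at least 118 CPM in each AL + NaIO3 library and at most 62.0 CPM in the other groups.

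All 10 members had a positive log2 fold change in AL + NaIO3 against AL + PBS, with a median of 0.84, while the median of all 15612 genes tested was 0.01. None of the 10 passed the test (edgeR's quasi-likelihood test, an adjusted p under 0.05 and at least 1.5-fold), which 12 genes in all did (0.0769%). DESeq2 called 0 members as well, where it called 411 genes in all (2.63%). At an unadjusted p under 0.05 in edgeR, 4 members were higher and 0 lower, where 7.51% of all genes were higher and 2.74% lower. These were Flt1 (log2 fold change 0.37 ± 0.13 SE, unadjusted p = 0.0193), Pecam1 (0.98 ± 0.37, unadjusted p = 0.0296), Tie1 (1.31 ± 0.53, unadjusted p = 0.0383) and Kdr (0.63 ± 0.26, unadjusted p = 0.0441), and their adjusted p from edgeR was between 0.372 and 0.474. The same 4 had groups that did not overlap, all higher, where this held for 9.67% of all genes higher and 8.64% lower. The other log2 fold changes were 1.11 ± 0.55 for Cdh5, 0.97 ± 0.45 for Tek, 0.88 ± 0.66 for Emcn, 0.80 ± 0.37 for Cldn5, 0.36 ± 0.26 for Plvap and 0.08 ± 0.31 for Esam. RPE genes moved in this comparison too, with sums of 1043 to 1268 CPM in AL + NaIO3 and 2037 to 2214 CPM in AL + PBS, and their part in the endothelial values was not tested.

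Without replicate 3 of AL + NaIO3 the median of the members was 0.28, with 8 of 10 positive and 0 called, while all 15731 genes tested then had a median of 0.00296 and 90 of them were called (0.572%). At an unadjusted p under 0.05 in edgeR, 6.8% of all genes were then higher and 5.42% lower. Flt1 was the member that kept an unadjusted p under 0.05 (0.30 ± 0.12, unadjusted p = 0.0358, adjusted p = 0.365, edgeR), and Kdr came to 0.22 ± 0.10 (unadjusted p = 0.0535). Tie1 was at 0.44 ± 0.29 and Pecam1 at 0.57 ± 0.29. Emcn changed sign, to -0.42 ± 0.30, and so did Esam, to -0.22 ± 0.26. The 2 remaining AL + NaIO3 libraries are assumed here to vary like the AL + PBS libraries. In the same fit 9 of 9 leukocyte genes were positive, 8 of them at an unadjusted p under 0.05 and 4 called, 6 of 8 RPE genes were called lower, and 5 of 5 melanocyte genes were negative, 4 at that p. Their part in the members' values was not tested.

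In IF + NaIO3 against AL + NaIO3, 9 of 10 members had a negative log2 fold change, with a median of -0.57 against -0.01 over all 15648 genes tested. This comparison shares the AL + NaIO3 libraries with the one before, so the directions of the 2 are not independent. By edgeR 0 members were called, against 6 genes in all (0.0383%). DESeq2 called 478 genes in all (3.05%), 1 of them a member, Kdr (log2 fold change -0.87, adjusted p = 0.0423). In edgeR, Kdr had the same change (-0.87 ± 0.27, unadjusted p = 0.0116, adjusted p = 0.304), and its adjusted p over the 12 alternative settings was between 0.0423 and 0.813. It was the one member at an unadjusted p under 0.05, where 8.22% of all genes were lower and 3.46% higher. It was also the one member whose groups did not overlap, where 10.1% of all genes were lower and 8.88% higher. The remaining values ran from -1.15 ± 0.66 for Emcn and -0.94 ± 0.50 for Tie1 through -0.71 ± 0.54 for Cdh5, -0.60 ± 0.46 for Tek, -0.53 ± 0.34 for Pecam1, -0.53 ± 0.38 for Cldn5, -0.41 ± 0.30 for Plvap and -0.22 ± 0.14 for Flt1 to 0.14 ± 0.30 for Esam. Genes of other cell types moved in this comparison too. All 9 leukocyte genes tested were lower in IF + NaIO3 without overlap, all 8 stroma and all 5 melanocyte genes were lower at an unadjusted p under 0.05 in edgeR, and 4 of 8 RPE genes were higher at that p. When replicate 3 of AL + NaIO3 was left out, this p was met by 9 leukocyte, 3 stroma and 1 melanocyte genes, all lower, and by 6 RPE genes, all higher. The part of these cell types in the values of Kdr and the other members was not tested.

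Without replicate 3 of AL + NaIO3 the median was -0.10 and 3 of 10 members were positive, with 0 members called by edgeR against 75 genes in all (0.476%). At an unadjusted p under 0.05, 5.93% of all genes were lower and 3.35% higher, and Kdr was again the one member at this p. Kdr remained lower in IF + NaIO3 (-0.48 ± 0.13, unadjusted p = 0.00463, adjusted p = 0.23, edgeR), with its 3 libraries below both remaining AL + NaIO3 libraries. Emcn (0.14 ± 0.33) and Cdh5 (0.13 ± 0.36) changed sign, and Tek was at -0.01 ± 0.34. The plot of fold changes shows 9 members, all but Esam, nearer to 0 in both comparisons when this library is left out.

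**Figure D4:**
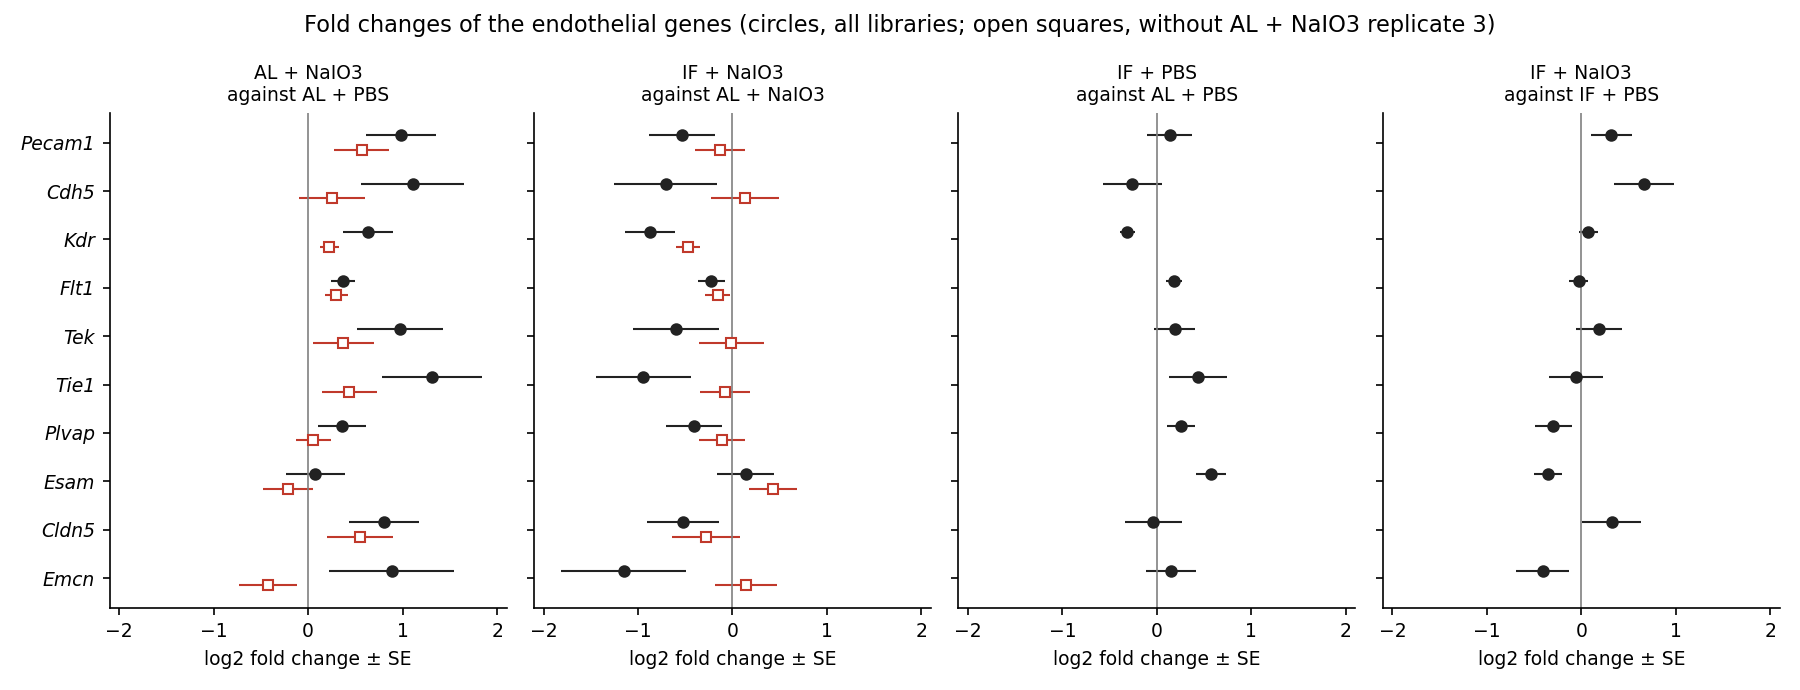
Log2 fold change (TMM-scaled counts, edgeR) of the 10 endothelial genes in 4 comparisons; bars are 1 SE, circles use all 6 libraries and open squares leave out replicate 3 of AL + NaIO3. In both comparisons that hold this library the squares lie nearer to 0 for 9 genes each, all but Esam, and Kdr lies at -0.48 in place of -0.87 in IF + NaIO3 against AL + NaIO3.

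Without injury, Kdr was lower and Esam higher in IF + PBS than in AL + PBS, both with groups that did not overlap and neither past the test. Kdr was at 129 ± 1.25 CPM in IF + PBS and at 160.1 ± 5.16 CPM in AL + PBS (SD, n = 3 each), with a log2 fold change of -0.31 ± 0.08 (unadjusted p = 0.00279, adjusted p = 0.175, edgeR). Esam was at 17.7 ± 2.15 CPM against 11.9 ± 1.79 CPM, with a log2 fold change of 0.57 ± 0.16 (unadjusted p = 0.00495, adjusted p = 0.187, edgeR). By DESeq2 their adjusted p were 0.0215 and 0.0397, but both changes were under 1.5-fold, so 0 members were called, against 192 genes in all (1.25%). The adjusted p over the 12 alternative settings ranged from 0.0215 to 0.649 for Kdr and from 0.0305 to 0.526 for Esam. Leaving out IF + PBS replicate 1 brought Esam past the test (0.66 ± 0.16, adjusted p = 0.0305, edgeR), in a setting that called 472 genes in all (3.03%). Flt1 (0.18 ± 0.09) and Plvap (0.25 ± 0.14) also had no overlap, both higher in IF + PBS. In this comparison edgeR called 0 of 15361 genes (0%). At an unadjusted p under 0.05, 8.22% were higher and 8.85% lower, and without overlap 10.6% were higher and 11.2% lower. The 10 members had a median log2 fold change of 0.16. Of the rest, Tie1 was at 0.43 ± 0.31, Tek at 0.19 ± 0.22, Emcn at 0.14 ± 0.27, Pecam1 at 0.13 ± 0.24, Cldn5 at -0.04 ± 0.30 and Cdh5 at -0.26 ± 0.31. Stroma genes moved in this comparison too, with a sum of 82.1 to 140.3 CPM in IF + PBS and 164 to 242 CPM in AL + PBS, and so did skeletal muscle genes, with sums of 16.6 to 79.0 and 105 to 234 CPM. Erythrocyte and platelet genes summed to 39.1 to 51.5 CPM in IF + PBS and to 57.1 to 76.8 CPM in AL + PBS, and RPE genes to 2301 to 2840 and 2037 to 2214 CPM. The 10 arterial and venous genes summed to 188 to 192 CPM in IF + PBS and to 159.8 to 174 CPM in AL + PBS, although 4 of the 9 tested had a positive log2 fold change. The part of these lists in the values of Kdr and Esam was not tested.

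In IF + NaIO3 against IF + PBS the members were spread around 0, with 5 of 10 positive and a median of 0.02. Esam was lower (-0.35 ± 0.15, unadjusted p = 0.041, adjusted p = 0.309, edgeR), with all IF + NaIO3 libraries below all IF + PBS libraries. Cdh5 had the largest positive value (0.66 ± 0.32), with overlapping groups, and Emcn the largest negative one (-0.41 ± 0.28). Kdr (0.08 ± 0.10) and Flt1 (-0.03 ± 0.10) had the smallest SE and lay within 1 SE of 0. The other values were 0.32 ± 0.22 for Pecam1, 0.32 ± 0.31 for Cldn5, 0.19 ± 0.24 for Tek, -0.06 ± 0.29 for Tie1 and -0.30 ± 0.20 for Plvap. Both edgeR and DESeq2 called 0 members, and edgeR called 0 of 15305 genes (0%) and DESeq2 72 (0.47%). At an unadjusted p under 0.05, 8.47% of genes were higher and 6.72% lower. Groups without overlap were higher for 10.1% and lower for 10.9%, which for the members was 0 higher and 1 lower. RPE genes summed to 1190 to 2095 CPM in IF + NaIO3 and to 2301 to 2840 CPM in IF + PBS, without overlap, and erythrocyte and platelet genes to 61.2 to 82.3 and 39.1 to 51.5 CPM. Arterial and venous genes summed to 162 to 175 CPM in IF + NaIO3 and to 188 to 192 CPM in IF + PBS, and activation genes to 15.6 to 18.2 and 10.7 to 13.4 CPM, both without overlap. Of the 9 arterial and venous genes tested, however, 6 had a positive log2 fold change and 3 a negative one, with a median of 0.01. All 5 melanocyte genes had negative log2 fold changes, 3 of them at an unadjusted p under 0.05 in edgeR. Their part in these values was not tested.

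Whether NaIO3 acted differently on the 2 diets was tested on the 12 libraries with an interaction term, in which a negative value means a lower log2 fold change of NaIO3 against PBS on the IF diet than on the AL diet. All 10 members were negative, with a median of -0.60, while the median of the 15970 genes tested was -0.02. By edgeR 0 members passed an adjusted p under 0.05, against 5 genes in all (0.0313%), and DESeq2 called 0 members, against 217 genes in all (1.36%). Flt1 was the one member at an unadjusted p under 0.05 (-0.39 ± 0.16, unadjusted p = 0.0252, adjusted p = 0.37, edgeR), where 6.88% of genes were lower and 5.08% higher. Tie1 (-1.36 ± 0.63, unadjusted p = 0.0503), Plvap (-0.65 ± 0.34, unadjusted p = 0.0782) and Kdr (-0.54 ± 0.29, unadjusted p = 0.0858) followed in edgeR, with adjusted p of 0.419, 0.456 and 0.462. The other terms were -1.28 ± 0.76 for Emcn, -0.77 ± 0.52 for Tek, -0.65 ± 0.44 for Pecam1, -0.48 ± 0.51 for Cldn5, -0.43 ± 0.67 for Cdh5 and -0.42 ± 0.35 for Esam. Without replicate 3 of AL + NaIO3 the median was -0.21, 2 members (Emcn and Cdh5) were positive, and Flt1 was at -0.34 ± 0.15 (unadjusted p = 0.0478, adjusted p = 0.456, edgeR). It was the one member at an unadjusted p under 0.05, where 5.41% of all genes were lower and 5.4% higher, and 0 members and 32 genes in all (0.199%) passed the adjusted test. Other lists moved in this term with all libraries. The leukocyte genes were negative for 9 of 9 (median -2.41, 6 at an unadjusted p under 0.05), the melanocyte genes for 5 of 5 (median -2.15), the stroma genes for 8 of 8 (median -1.08) and the mural genes for 9 of 10 (median -0.88). Their medians without replicate 3 of AL + NaIO3 were -1.89, -0.05, 0.23 and -0.20. The part of these cell types in the members' terms was not tested.

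The log2 ratio of Plvap to Cldn5 sets a gene of fenestrated vessels against one of sealed vessels within each library, so that the total of endothelial RNA cancels. On counts it was 1.93 ± 0.21 in AL + PBS, 2.26 ± 0.57 in IF + PBS, 1.501 ± 0.620 in AL + NaIO3 and 1.59 ± 0.23 in IF + NaIO3 (SD, n = 3 each). Replicate 3 of AL + NaIO3, at 1.52, lay between the other libraries of its group, at 0.87 and 2.11. The ratio was lower after NaIO3 than after PBS on both diets, by 0.43 (AL) and 0.67 (IF) on the log2 scale, with exact two-sided permutation p-values of 0.3 and 0.1. Between diets it differed by 0.33 after PBS and by 0.09 after NaIO3, with exact permutation p-values of 0.5 and 0.8. The smallest p that 3 against 3 libraries can give is 0.1, so no difference could pass 0.05, and the 4 p-values were not adjusted. The sizes rest on single libraries. With each library left out in turn, the difference after NaIO3 ran from -0.73 (without AL + NaIO3 replicate 2) to -0.11 (without AL + NaIO3 replicate 1) on the AL diet, and from -0.90 (without IF + PBS replicate 2) to -0.35 (without IF + PBS replicate 1) on the IF diet. The diet difference after PBS ran from 0.01 (without IF + PBS replicate 1) to 0.56 (without IF + PBS replicate 2). Without replicate 3 of AL + NaIO3 the difference after NaIO3 on the AL diet was -0.44, and that between the diets after NaIO3 was 0.10.

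The other genes of the endothelium at large (24 genes, such as Vwf, Eng, Erg and Nos3) had positive log2 fold changes for 24 of 24 in AL + NaIO3 against AL + PBS, with a median of 0.98, 7 at an unadjusted p under 0.05 and 0 called. At that p 7.51% of all genes were higher and 2.74% lower in this comparison. Lmo2, a transcription cofactor of blood and endothelial cells, had the smallest p (0.90 ± 0.26, unadjusted p = 0.00906, adjusted p = 0.317, edgeR). In IF + NaIO3 against AL + NaIO3, 21 of the 24 were negative, with a median of -0.73 and again Lmo2 first (-0.67 ± 0.26, unadjusted p = 0.0316). In IF + PBS against AL + PBS 13 of 23 tested were positive, with a median of 0.10, 2 higher and 1 lower at an unadjusted p under 0.05, and Sox17, a transcription factor of endothelium, had the smallest p (0.84 ± 0.34, unadjusted p = 0.0337, adjusted p = 0.258, edgeR). Of all genes, 8.22% were higher and 8.85% lower at that p. In IF + NaIO3 against IF + PBS 15 of 23 were positive, with a median of 0.15, 4 higher (Erg, Cd34, Ptprb and Adgrl4) and 1 lower at that p, where 8.47% of all genes were higher and 6.72% lower. Adgrl4, an adhesion receptor of endothelium, had the smallest p there (0.90 ± 0.35, unadjusted p = 0.0279, adjusted p = 0.28, edgeR), and 0 were called in either comparison. Their interaction terms had a median of -0.84, with 23 of 24 negative and 0 called, and Lmo2 had the smallest p (-1.01 ± 0.29, unadjusted p = 0.00437, adjusted p = 0.261, edgeR). Without replicate 3 of AL + NaIO3, the library in which 21 of these genes were highest, the median was 0.24 in AL + NaIO3 against AL + PBS, with 16 of 24 positive, 2 at an unadjusted p under 0.05 in edgeR and 0 called. At that p 6.8% of all genes were then higher and 5.42% lower. The median of the list was 0.09 in IF + NaIO3 against AL + NaIO3, with 13 positive, and 0.01 for the interaction, with 13 positive. The list summed to 156 and 131 CPM in the other 2 AL + NaIO3 libraries and to 121 to 137 CPM in AL + PBS. Lmo2 was then at 0.66 ± 0.21 in the first comparison (unadjusted p = 0.0144, adjusted p = 0.28, edgeR) and at -0.44 ± 0.22 in the next (unadjusted p = 0.0767, adjusted p = 0.613, edgeR). Its interaction was at -0.78 ± 0.25 (unadjusted p = 0.00714, adjusted p = 0.308, edgeR). With all libraries, 8 of 8 stroma, 10 of 10 mural and 9 of 9 leukocyte genes were positive in AL + NaIO3 against AL + PBS. Without replicate 3, 2 stroma, 6 mural and 9 leukocyte genes were positive. The part of these cell types in the values of this list was not tested.

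The list of ligands and co-receptors of the VEGF and angiopoietin pathways comprised Vegfa, Vegfb, Vegfc, Vegfd, Pgf, Angpt1, Angpt2, Nrp1, Nrp2 and also Flt4, which is itself a VEGF receptor. In AL + NaIO3 against AL + PBS, 8 of 10 were positive, with a median of 0.44, 3 at an unadjusted p under 0.05 and 0 called. All 3 were higher, where 7.51% of all genes were higher and 2.74% lower at that p. Pgf, which encodes placental growth factor, a ligand of Flt1, had the smallest p (1.51 ± 0.41, unadjusted p = 0.0065, adjusted p = 0.286, edgeR). Angpt1, the activating ligand of Tek, had the smallest p in IF + NaIO3 against AL + NaIO3 (-1.99 ± 0.70, unadjusted p = 0.0211, adjusted p = 0.354, edgeR). It was at 17.0 CPM in replicate 3 of AL + NaIO3 and at most at 3.66 CPM elsewhere. Vegfb, another ligand of Flt1, was higher in IF + PBS than in AL + PBS (0.28 ± 0.10, unadjusted p = 0.0214, adjusted p = 0.237, edgeR). Nrp1, a VEGF co-receptor, had the smallest p among the interaction terms of this list (-0.98 ± 0.41, unadjusted p = 0.035, adjusted p = 0.393, edgeR). Vegfa was at 167 CPM in replicate 3 of AL + NaIO3, under its highest value of 198 CPM in another library. With replicate 3 of AL + NaIO3 left out, the median of the list was 0.04 in AL + NaIO3 against AL + PBS, with 5 of 10 positive, 1 higher and 2 lower at an unadjusted p under 0.05 in edgeR, and 0.19 in IF + NaIO3 against AL + NaIO3, with 7 of 10 positive, where it was -0.28 with the library. Of all genes, 6.8% were higher and 5.42% lower at that p in the first of these comparisons. Pgf was then at 1.11 ± 0.35 after NaIO3 on the AL diet (unadjusted p = 0.0125, adjusted p = 0.265, edgeR). The lower genes were Vegfa (-0.52 ± 0.20, unadjusted p = 0.0344, adjusted p = 0.36, edgeR) and Nrp2, another co-receptor (-0.33 ± 0.13, unadjusted p = 0.0307, adjusted p = 0.347, edgeR), which were at -0.33 ± 0.23 and 0.26 ± 0.35 with the library. Angpt1 was at -0.64 ± 0.35 between the diets after NaIO3 (unadjusted p = 0.104, edgeR), and the interaction of Nrp1 was at -0.42 ± 0.24 (unadjusted p = 0.104, edgeR).

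Of the lists that separate kinds of vessel, the arterial and venous genes (9 of 10 tested) had a median of 0.07 in AL + NaIO3 against AL + PBS, where 6 were positive. This median was -0.02 without replicate 3 of AL + NaIO3. Dll4, a Notch ligand of arteries, had the smallest p (1.31 ± 0.43, unadjusted p = 0.0165, adjusted p = 0.357, edgeR), with groups that did not overlap, and was at 1.198 ± 0.456 without the library. Ephb4, an ephrin receptor of veins, was the other gene at an unadjusted p under 0.05 (1.16 ± 0.50, unadjusted p = 0.0474, adjusted p = 0.48, edgeR), and was at 0.38 ± 0.29 without the library. It had the smallest p in IF + NaIO3 against AL + NaIO3 (-1.49 ± 0.49, unadjusted p = 0.0151, adjusted p = 0.331, edgeR), without overlap, and in the interaction (-1.46 ± 0.56, unadjusted p = 0.0222, adjusted p = 0.361, edgeR). Without the library these were -0.72 ± 0.28 and -0.69 ± 0.35. Ackr1, a chemokine-binding receptor of venules, was higher in IF + PBS than in AL + PBS (0.43 ± 0.10, unadjusted p = 0.00158, adjusted p = 0.175, edgeR) and lower in IF + NaIO3 than in IF + PBS (-0.35 ± 0.10, unadjusted p = 0.00599, adjusted p = 0.22, edgeR), both without overlap. These 2 comparisons share the IF + PBS libraries. Ackr1 had a mean of 66.9 FPKM, against 23.8 FPKM for Kdr, the most abundant member. In replicate 3 of AL + NaIO3 it was at 74.0 CPM, under its highest value of 122 CPM in another library. Which cells gave the reads of Ackr1 was not tested.

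The 6 genes of the blood-retina barrier had a median of 0.77 in AL + NaIO3 against AL + PBS (0.51 without that library), and of -0.18 in IF + NaIO3 against AL + NaIO3, where 4 of 6 were lower (0.11 and 2 of 6 without it). Slco1c1, a thyroid hormone transporter of barrier vessels, was lower (-0.73 ± 0.20, unadjusted p = 0.0067, adjusted p = 0.287, edgeR) and, against the direction of its list, higher in IF + NaIO3 against AL + NaIO3 (0.60 ± 0.25, unadjusted p = 0.0406, adjusted p = 0.41, edgeR). Without the library these values were -0.85 ± 0.17 and 0.71 ± 0.24, with adjusted p of 0.0977 and 0.365 by edgeR. With all libraries, 7 of 8 RPE genes were lower in the first comparison and 7 of 8 higher in the second. Their part in the values of Slco1c1 was not tested. Mfsd2a, a lipid transporter of barrier vessels, had the smallest p in IF + PBS against AL + PBS (0.86 ± 0.33, unadjusted p = 0.0267, adjusted p = 0.245, edgeR), and Abcb1a, an efflux pump, in IF + NaIO3 against IF + PBS (1.07 ± 0.39, unadjusted p = 0.0193, adjusted p = 0.259, edgeR). Of 4 activation genes 2 were tested, Icam1 and Vcam1, with a median of 1.90 in AL + NaIO3 against AL + PBS and -1.74 in IF + NaIO3 against AL + NaIO3. Vcam1, an adhesion molecule for leukocytes, had log2 fold changes of 1.73 ± 0.39 (unadjusted p = 0.00223, adjusted p = 0.242) and -1.64 ± 0.38 (unadjusted p = 0.0024, adjusted p = 0.208) in these 2 comparisons by edgeR. Both passed the test without replicate 3 of AL + NaIO3, at 1.11 ± 0.17 (adjusted p = 0.0362) and -1.03 ± 0.17 (adjusted p = 0.048) by edgeR, and the medians of the pair were 1.14 and -0.98. Those fits called 90 (0.572%) and 75 genes (0.476%) in all, among them 4 and 3 of the 9 leukocyte genes tested. Of 8 RPE genes, 6 were called lower in the first fit, and 6 were higher at an unadjusted p under 0.05 in the second. The part of these cell types in the values of Vcam1 was not tested. Vcam1 was at -0.40 ± 0.17 in IF + PBS against AL + PBS and at 0.50 ± 0.17 in IF + NaIO3 against IF + PBS (adjusted p of 0.269 and 0.242, edgeR). Its interaction was at -1.23 ± 0.44 (unadjusted p = 0.0155, adjusted p = 0.336, edgeR). Without replicate 3 of AL + NaIO3 this was -0.62 ± 0.24 (unadjusted p = 0.0232, adjusted p = 0.396, edgeR). Sele and Selp had 0 reads in at least 1 library, reached at most 0.186 and 1.04 CPM, and were not tested. Vcam1 was between 8.69 and 72.3 CPM. The values of this list thus rest on Icam1 and Vcam1, and which cells gave their reads was not tested. The 3 lymphatic genes had a median of -0.10 in AL + NaIO3 against AL + PBS (-0.15 without that library), and Prox1 among them is also a gene of retinal neurons. Lyve1, which some macrophages also carry, had the smallest p of these in IF + NaIO3 against AL + NaIO3 (0.47 ± 0.20, adjusted p = 0.415, edgeR; 0.44 ± 0.20 without that library) and in IF + PBS against AL + PBS (0.35 ± 0.14, adjusted p = 0.245, edgeR). Pdpn had it in IF + NaIO3 against IF + PBS (-0.38 ± 0.17, adjusted p = 0.319, edgeR). With all libraries, no gene of these lists was called in any of the 4 comparisons.

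The genes whose profile over the 12 libraries was most like the mean profile of the members were Arhgap18, Ctsl, Adgra2, Man2b1 and Lamb1. Likeness was the root mean square difference of log2 CPM after centring each gene on its own mean, over 14261 genes with a mean of at least 1 CPM. It was 0.12 for Arhgap18, 0.13 for Ctsl, Adgra2, Man2b1 and Lamb1 alike, and 0.45 for the median gene. All 5 share the high value in replicate 3 of AL + NaIO3. Arhgap18 was at 17.6 CPM there and at 7.83 to 10.2 CPM in the other 11 libraries, and Ctsl at 266 against 104 to 146 CPM. Among the members themselves, Kdr lay nearest to the mean of the other 9 (0.26) and Esam farthest (0.52). Without replicate 3 of AL + NaIO3, the SD of log2 CPM over the remaining 11 libraries went from 0.69 to 0.34 for Emcn and from 0.65 to 0.35 for Tie1, but stayed near 0.39 for Esam (0.38 with it).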

How the data were processed

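RNA of 12 mice, 3 per group, was analysed, with groups and replicate numbers taken from the sample labels. The authors sequenced poly-A selected RNA and mapped it to the genome. The submitters' processing notes list HISAT2, StringTie, DESeq2 and edgeR. The deposited counts are whole numbers per gene without normalization. The deposited FPKM were used as given. They are not these counts over 1 length and the count total, since their ratio to the counts per total differed between libraries for some genes. The methods say that values were normalized for depth and gene length, and the formula is not given in the sources used here. The methods name GRCm39, but the deposited coordinates are those of GRCm38. The counting tool's strand setting is not given in the sources used here. Columns of the authors' own comparison, with fold changes and p-values, were not used, and 0 per-sample columns were left unassigned.

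Counts were tested in R 4.3.3 with edgeR 4.0.16 (TMM, filterByExpr, quasi-likelihood test on the 6 libraries compared, Benjamini-Hochberg adjustment over all genes tested). Calls needed an adjusted p under 0.05 and at least 1.5-fold, and the interaction an adjusted p under 0.05. SE are the log2 fold change divided by the square root of F. DESeq2 1.42.0, other scalings and filters, all 12 libraries fitted together, the replicate block and each library left out were the alternatives, with list values without replicate 3 of AL + NaIO3 added after seeing the data, and the scripts were tested on simulated data. P-values measure the spread between these mice. No 2 libraries of a group were duplicates (chi-square per gene 13.2 to 238 over 12 pairs).

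The 10 members and the 14 other lists were chosen with earlier results of these data known. Genes outside the members are named by a rule: from a list, the gene with the smallest p in a comparison if under 0.05, and the 5 genes most like the members' mean profile. Values of the remaining list genes are given only to describe their list. Lists of other cell types are given by sums, counts and medians, and the test results of the genes the rule picks from them are not given. Of these genes, Dcn is named as an example of its list and Sag for its level. 1 gene of the photoreceptor list is not reported here and was left out of its values.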

Additional observations from a re-analysis of the deposited data

Results flagged for a closer look

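For 4 members every fasted library moved in one direction against the AL mean after PBS and in the opposite direction after NaIO3. All 3 IF + PBS libraries were above the AL + PBS mean, and all 3 IF + NaIO3 libraries were below the AL + NaIO3 mean, for Flt1, Plvap, Tek and Pecam1. The interaction term from edgeR was -0.39 ± 0.16 for Flt1 (unadjusted p = 0.0252, adjusted p = 0.37), -0.65 ± 0.34 for Plvap (adjusted p = 0.456), -0.77 ± 0.52 for Tek (adjusted p = 0.548) and -0.65 ± 0.44 for Pecam1 (adjusted p = 0.552), so none passed the test of the difference itself. With replicate 3 of AL + NaIO3 left out of the AL + NaIO3 mean, the opposite directions were seen for Flt1 but not for Plvap, Tek or Pecam1. The share of all genes with such opposite directions was not determined. The count of 4 members is therefore not read as a result about the members.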

How the results depend on the processing

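Of 650 values of the 10 genes under other settings (4 comparisons and the interaction), 633 kept their direction and their side of the test, 2 passed it and 15 changed sign. DESeq2 called 1 member (Kdr) in IF + NaIO3 against AL + NaIO3, where edgeR called 0, out of 478 genes in all by DESeq2 and 6 by edgeR. Leaving out 1 library gave 0 to 1 called members in IF + PBS against AL + PBS (Esam, without IF + PBS replicate 1, a setting with 472 genes called in all). Over the libraries left out, the members' median ran from 0.28 to 1.14 in AL + NaIO3 against AL + PBS and from -0.80 to -0.21 for the interaction, the value nearest 0 in both being without replicate 3 of AL + NaIO3. In AL + NaIO3 against AL + PBS, Esam ran from -0.22 to 0.34 and Emcn from -0.42 to 1.30. In IF + NaIO3 against AL + NaIO3, Esam ran from -0.12 to 0.43, Emcn from -1.57 to 0.14, Cdh5 from -1.10 to 0.13 and the log2 ratio of Plvap to Cldn5 from -0.23 to 0.39. In IF + PBS against AL + PBS, Pecam1 ran from -0.088 to 0.37, Cldn5 from -0.26 to 0.19 and Emcn from -0.17 to 0.29. In IF + NaIO3 against IF + PBS, Flt1 ran from -0.10 to 0.010 and Tie1 from -0.30 to 0.22. The interaction ran from -1.71 to 0.0062 for Emcn and from -0.84 to 0.40 for Cdh5. Replicate 3 of AL + NaIO3 accounted for 6 of the sign changes. The cause of these changes was not tested.

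With the replicate number as a block, 0 members were called, the medians were 0.65, -0.47, 0.18, 0.04 and -0.57 (the 4 comparisons in the order of the text and the interaction), and Tie1 in IF + NaIO3 against IF + PBS was at 0.0014. Same-numbered libraries shared only a number: their deviations correlated between -0.10 and 0.14 over 18 pairs, with 1 pair over 0.1. The block called 28, 28, 5, 0 and 8 genes over all genes tested, and the fit without it 12, 6, 0, 0 and 5. DESeq2 called 411, 478, 192, 72 and 217. A fit of all 12 libraries called 177 and 190 in the first 2 comparisons, and no filter on low counts 19, 16, 0, 2 and 13. Leaving out libraries gave 0 to 90, 0 to 75, 1 to 472, 0 to 197 and 3 to 366. The depth is lowest for Cdh5, with 54 reads in its lowest library, and each group holds 3 mice.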
